A study of Mus musculus with 8 samples.

Results

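The transcripts examined were those of 10 early response genes, the EGR genes Egr1, Egr2 and Egr3, the NR4A genes Nr4a1, Nr4a2 and Nr4a3, the IER genes Ier2, Ier3 and Ier5, and Srf, out of 53801 genes in the count table. They were chosen by gene symbol as named members of these families, and each symbol matched 1 gene. All 10 had enough reads to be tested, among 15283 genes tested in all. RNA-seq libraries had been made from stromal cells of MO5 melanomas, a B16 melanoma line expressing ovalbumin, 8 days after subcutaneous inoculation into ADAM12-GFP mice of C57Bl/6 background aged 8 to 12 weeks. These mice carry a bacterial artificial chromosome transgene in which Adam12 sequences drive Cre and GFP, so that GFP stands for ADAM12 promoter activity and both groups carry the transgene. After a 30 min enzymatic digestion, cells sorted as CD45- CD31- PDPN+ PDGFRα+ were divided into GFP+ (ADAM12+) and GFP- (ADAM12-) cells, with 4 libraries in each group. By the study's general rule for n, the replicates of a group would be separate mice, but the sample labels tie no library to a mouse or a pool. The p-values below measure the spread between these libraries.

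Immediate early genes are transcribed within minutes of a stimulus such as a growth factor, a cytokine or mechanical stress, without new protein synthesis, and their transcripts decay quickly. SRF, which binds the CArG box together with ternary complex factors or myocardin-related factors, and CREB, which binds the cyclic AMP response element (CRE), are the best known activators of their promoters. EGR proteins are zinc finger transcription factors that bind a GC-rich element, NR4A proteins are orphan nuclear receptors whose activity is set largely by how much of them is made, and the IER proteins are short-lived regulators that belong to no single structural family. In fibroblasts these genes respond to serum, wounding and tissue dissociation. Transcripts made in the tissue and transcripts made during preparation cannot be told apart in these libraries.

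The libraries held 883144 to 31666734 counts. GFP- replicate 3 was the shallowest by far, with 33 reads of Egr2 and 1690 of Egr1. Adam12 itself was higher in GFP+ libraries by 0.75 ± 0.24 on the log2 scale (SE, DESeq2 adjusted p = 0.0266, edgeR adjusted p = 0.0643). The summed normalised count of the stromal markers was 253552 to 559288 in GFP- and 666226 to 764372 in GFP+ libraries. Most of it came from Col1a1, Col1a2 and Col3a1. DESeq2 called 6 of the 8 markers higher in GFP+, led by Lum and Pdgfra. Of the 2 that define the gate, Pdgfra averaged 5774 ± 978 in GFP- and 14371 ± 1526 in GFP+ libraries (SD, n = 4 each). Pdpn averaged 1958 ± 408 and 3161 ± 620. All 7 melanocyte markers were called lower in GFP+, with sums of 23018 to 68093 in GFP- and 4422 to 10765 in GFP+ libraries. Summed leukocyte markers ran from 671 to 4834 and from 765 to 3735, and 0 of 8 tested were called. Of the tested markers, DESeq2 called 0 of 5 endothelial and 0 of 1 keratinocyte markers, while 1 of 5 pericyte markers was higher and 2 of 3 Schwann cell markers were lower. With edgeR 0 endothelial and 0 pericyte markers were called, and 1 Schwann cell marker was lower. Limma voom called 1 endothelial and 1 pericyte marker higher and 1 Schwann cell marker lower. Over all tested genes DESeq2 called 4.66% higher and 4.76% lower, so a count of 0 in lists this small is near the background. The Schwann cell sums were 560 to 1363 in GFP- and 231 to 395 in GFP+ libraries. The part of these differences in cell content in the results below was not tested, and in bulk samples fewer cells of a type and less RNA per cell cannot be told apart.

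Promoter windows, from 250 bases before to 50 after each start site, came from a table of RefSeq promoters on GRCm38.p6, in which 7 of the 10 genes were matched. Egr1, Egr3 and Ier2 were not analysed for motifs here. They are shown because CArG boxes and CRE sites are the elements through which these families are known to be induced. The stretches below lie upstream of the RefSeq start site of each window and read 5′ to 3′ on the strand of the gene. Capitals mark CArG boxes and CRE half-sites (TGACG on either strand, so also CGTCA). The Nr4a3 stretch ends at 48045172, past the annotated gene start at 48045153, and its last marked half-site lies inside the annotated gene. The last bases of the Srf stretch also lie inside the annotated gene and hold no marked site. The Nr4a1 and Egr2 stretches lie wholly inside the annotated gene spans given below. Nr4a1 (chr15:101266596-101266845, plus strand), Nr4a2 (chr2:57124004-57124253, minus strand) and Nr4a3 (chr4:48045055-48045172, plus strand) come first, and then Egr2 (chr10:67537619-67537868, plus strand) and Srf (chr17:46556163-46556412, minus strand).
Nr4a1: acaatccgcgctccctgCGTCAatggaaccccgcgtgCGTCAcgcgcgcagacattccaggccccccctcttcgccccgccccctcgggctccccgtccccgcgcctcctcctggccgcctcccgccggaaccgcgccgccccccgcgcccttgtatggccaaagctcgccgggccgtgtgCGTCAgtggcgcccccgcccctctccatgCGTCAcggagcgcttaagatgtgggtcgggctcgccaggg
Nr4a2: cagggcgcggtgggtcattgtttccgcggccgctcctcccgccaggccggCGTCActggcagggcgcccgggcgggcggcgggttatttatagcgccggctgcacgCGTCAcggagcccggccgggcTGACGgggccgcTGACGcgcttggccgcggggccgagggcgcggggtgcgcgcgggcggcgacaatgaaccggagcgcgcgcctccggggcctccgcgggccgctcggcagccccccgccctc
Nr4a3: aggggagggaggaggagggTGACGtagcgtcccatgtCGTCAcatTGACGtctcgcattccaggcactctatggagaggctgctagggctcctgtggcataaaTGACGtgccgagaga
Egr2: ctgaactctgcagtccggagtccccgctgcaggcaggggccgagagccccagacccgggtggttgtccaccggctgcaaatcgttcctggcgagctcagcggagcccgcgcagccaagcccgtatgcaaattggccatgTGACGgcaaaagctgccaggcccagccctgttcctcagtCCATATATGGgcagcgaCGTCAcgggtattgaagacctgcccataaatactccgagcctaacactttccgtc
Srf: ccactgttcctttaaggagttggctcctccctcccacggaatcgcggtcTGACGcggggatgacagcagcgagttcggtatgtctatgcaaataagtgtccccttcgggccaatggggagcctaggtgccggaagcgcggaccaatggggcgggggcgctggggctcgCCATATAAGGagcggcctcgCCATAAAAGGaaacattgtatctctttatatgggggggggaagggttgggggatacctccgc

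Each NR4A window held 4 CRE half-sites, a number reached by 76 of 32851 windows in the genome-wide set (0.231%), whereas 20.8% of windows held at least 1. The sites stood at -233 to -36 in Nr4a1, at -200 to -107 in Nr4a2 and at -231 to -143 in Nr4a3, counted in bases from the start site. The printed Egr2 window held 2 CRE half-sites and the Srf window held 1. The Srf window held 2 CArG boxes, at -82 to -73 and at -62 to -53, which 6 windows (0.018%) did, and the printed Egr2 window held 1, at -72 to -63, as against 1.63% of all windows with any. Egr2 had 5 overlapping or neighbouring windows, of which 4 held a CArG box. The windows starting at 67537619, 67537620 and 67537680 overlap and hold the same box. The printed window was chosen as one with the most CArG boxes and CRE half-sites. An EGR motif (GCGTGGGCG or GCGGGGGCG) was found in the windows of Nr4a1 and Srf and in 3.47% of all windows. The windows of Ier3 and Ier5 held none of the motifs searched. The complete CRE (TGACGTCA, which contains the half-site), the AP-1 site (TGANTCA), the NBRE bound by NR4A proteins (AAAGGTCA), the Ets site (CCGGAAGT) and the NF-kB site were found in 1.79%, 7.81%, 1.51%, 3.89% and 0.155% of all windows and in 0 of the 11 windows of these genes. These matches describe the letters of the windows and do not show binding.

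**Figure D1:**
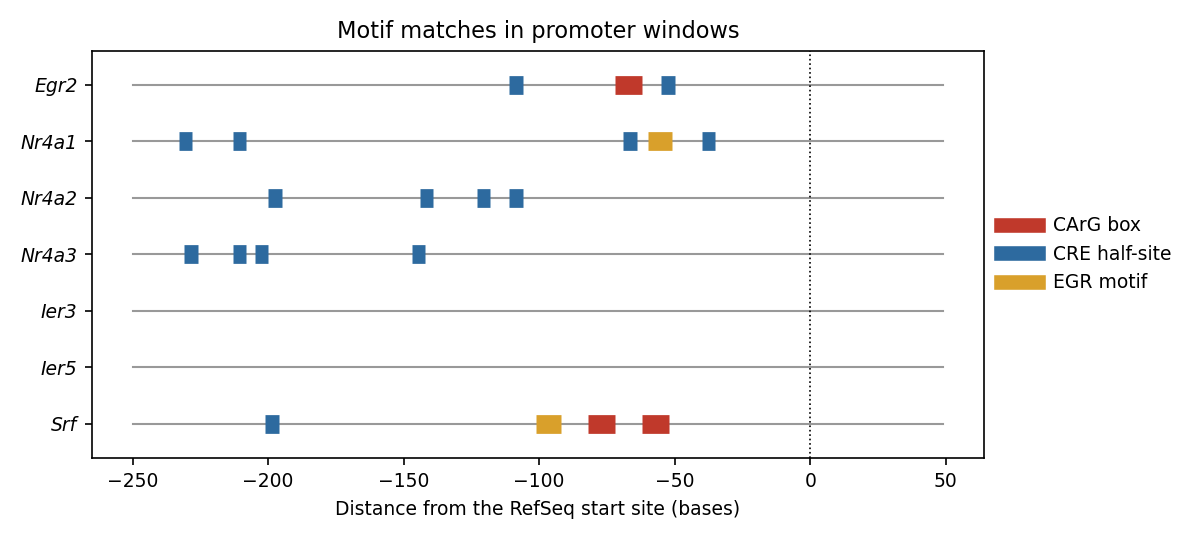
Positions of motif matches in the promoter windows of the 7 genes analysed, as distance in bases from the start site (dotted line), with CArG boxes in red, CRE half-sites in blue and EGR motifs in yellow. The 3 NR4A genes each show 4 CRE half-sites. Egr2 and Srf show CArG boxes together with 2 and 1 CRE half-sites, and Ier3 and Ier5 show no match.

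The comparison of GFP+ with GFP- libraries asks whether cells with ADAM12 promoter activity differ from their neighbours in the same stromal gate in these transcripts. Egr1, Egr2 and Nr4a1 were higher in GFP+ cells, by 1.43-fold to 2.02-fold, and none of the 10 genes was called lower. A gene was called where DESeq2 gave an adjusted p under 0.05 over all genes tested. Thus 3 of 10 genes were called higher, where 4.66% of all tested genes were, and 0 of 10 lower, where 4.76% were. An unadjusted p under 0.05, which is not the call used here, was reached by 6 of the 10 genes with a positive estimate, where 10.2% of all tested genes reached it, and by 1 with a negative estimate, Nr4a3, where 10.8% did. With edgeR 2 of 10 were called higher, against 2.83% of genes, and with limma voom 4 of 10, against 4.5%. Both tools called 0 of 10 lower, where edgeR called 2.28% and limma voom 4.5% of genes lower. Every GFP+ library lay above every GFP- library for Egr1, Egr2, Nr4a1 and Nr4a2, which is 4 of 10 genes as against 6.37% of all tested genes. The median log2 fold change was 0.48 over the 10 genes and -0.008 over all genes tested, and 8 of the 10 were positive. That of the 8 stromal markers was higher, at 0.89 with 8 of 8 positive, and that of the 7 melanocyte markers was -3.01. The part of cell content in these medians was not tested. Without GFP- replicate 3, 4 of the 10 genes were called higher, and with any other library left out 2 to 4 were.

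**Figure D2:**
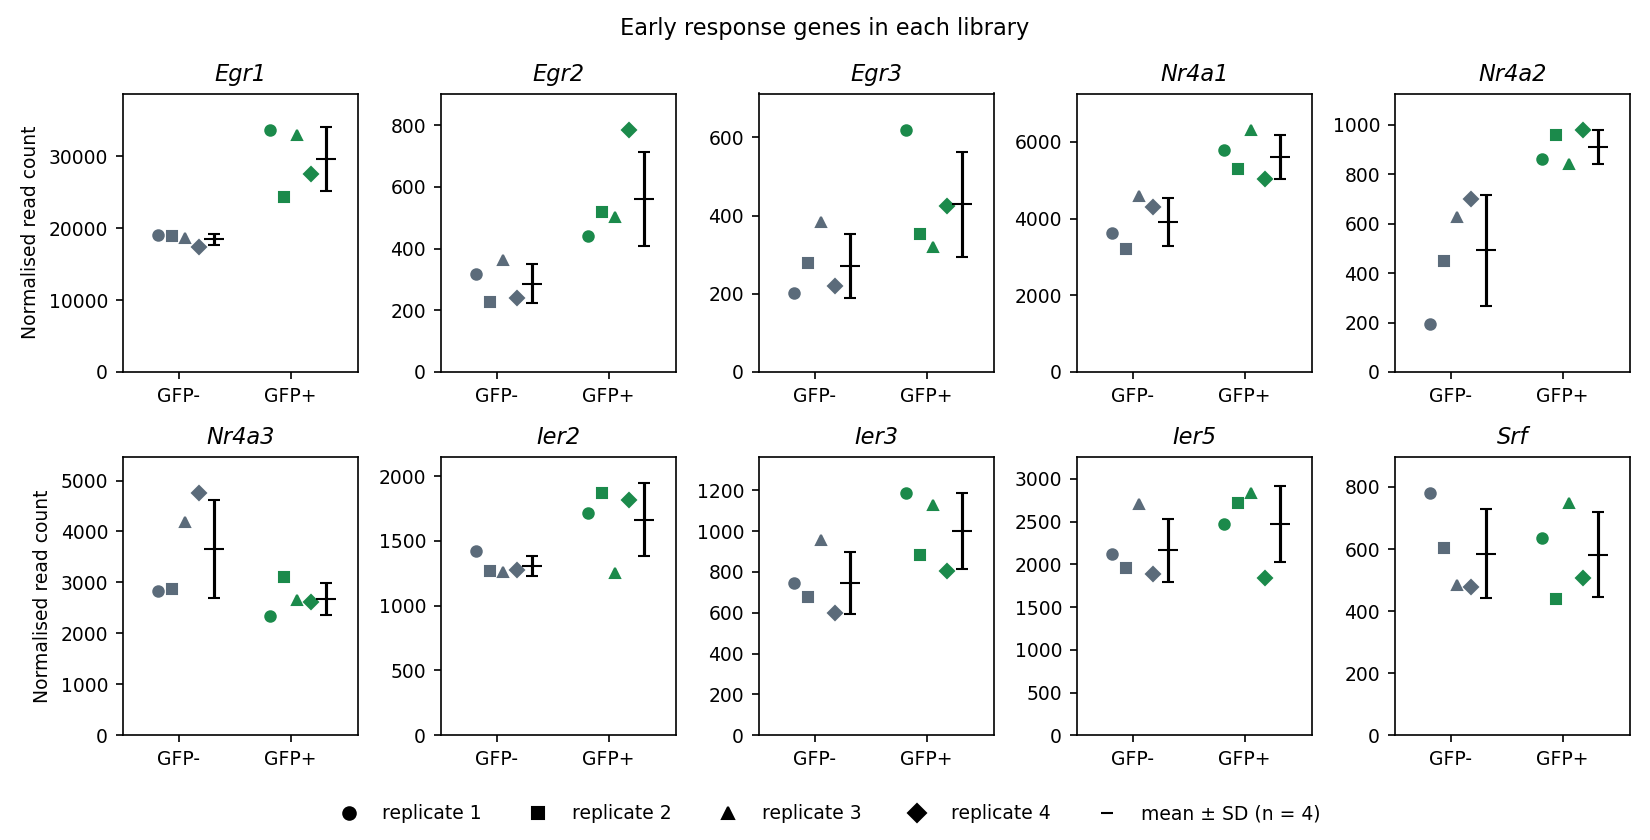
Normalised read counts (raw counts divided by the DESeq2 size factor, linear axes from 0) of the 10 genes in each GFP- (grey) and GFP+ (green) library, with a marker shape per replicate number and the mean ± SD of 4 libraries in black. The groups do not overlap for Egr1, Egr2, Nr4a1 and Nr4a2, while Srf lies in the same range in both.

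Egr1, the prototype zinc finger factor of the EGR family (ENSMUSG00000038418), was the most abundant of these transcripts. Its normalised read counts, which are raw counts divided by the DESeq2 size factor of the library, were 19052, 18909, 18569 and 17390 in GFP- replicates 1 to 4 and 33687, 24366, 32906 and 27595 in GFP+ replicates 1 to 4. The GFP- libraries lay close together and all GFP+ libraries lay above them. The means were 18480 ± 754 (SD, n = 4) and 29638.5 ± 4436 (SD, n = 4), so that GFP+ exceeded GFP- by 0.68 ± 0.15 on the log2 scale (SE, DESeq2 adjusted p = 0.000184, edgeR adjusted p = 0.0162). The difference was called in all 16 alternative fits, and the adjusted p ran from 1.55e-05 to 0.00562 when 1 library was left out.

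Egr2 (ENSMUSG00000037868, chromosome 10, 67535475 to 67542188, plus strand, GRCm38), a family member best known for its part in myelination and in lymphocytes, stood far lower. It was measured at 317, 226, 363 and 241 normalised counts in GFP- replicates 1 to 4 and at 440, 520, 504 and 785 in GFP+ libraries. The groups did not overlap, and GFP+ replicate 4 was the highest. The means of 287 ± 64.4 and 563 ± 153 (SD, n = 4 each) differed by 1.02 ± 0.27 on the log2 scale (SE, DESeq2 adjusted p = 0.00337, edgeR adjusted p = 0.0322). All 16 alternatives called it too, with a leave-one-out adjusted p of 0.00113 to 0.0389.

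Egr3 (ENSMUSG00000033730, chromosome 14, 70077203 to 70082614, plus strand), which is often induced downstream of calcium and NFAT signalling, gave 201, 279, 385 and 220 normalised counts in GFP- replicates 1 to 4 and 619, 354, 319 and 425 in GFP+ libraries. GFP- replicate 3 stood above GFP+ replicates 2 and 3, so the groups overlapped. The log2 fold change of 0.71 ± 0.30 (SE), with a 95% interval of 0.12 to 1.30, was close to that of Egr1 but did not pass the test (DESeq2 adjusted p = 0.126, edgeR adjusted p = 0.202). Without GFP- replicate 3, the library with 35 reads of this gene, it was 0.86 with an adjusted p of 0.0325.

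The other genes tied to EGR activity did not pass the test. Egr4, the remaining family member, had at most 27.2 normalised counts in any library, and its log2 fold change was 0.18 with a 95% interval of -3.21 to 3.56. The corepressors NAB1 and NAB2 bind EGR proteins and limit them, and NAB2 is itself an EGR target. Nab2 averaged 268 ± 155 in GFP- and 440.3 ± 89.2 in GFP+ libraries (SD, n = 4 each), a difference of 0.77 ± 0.41 on the log2 scale (SE, DESeq2 adjusted p = 0.277), and Nab1 differed by 0.13 ± 0.23. Of the 3 genes, 0 were called by DESeq2, edgeR or limma and 0 had an unadjusted p under 0.05. With 4.66% of all tested genes called higher and 4.76% lower by DESeq2, 0 of 3 is near the background.

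Of the NR4A genes, Nr4a1 was higher in GFP+ cells, while Nr4a2 and Nr4a3 had estimates of opposite sign that did not pass the test. Nr4a1 (ENSMUSG00000023034, chromosome 15, 101254269 to 101274795, plus strand), which encodes NUR77, gave 3620, 3206, 4582 and 4292 normalised counts in GFP- replicates 1 to 4 and 5798, 5285, 6317 and 5040 in GFP+ libraries. The lowest GFP+ library lay above the highest GFP- library. The means were 3925 ± 626 and 5610 ± 567 (SD, n = 4 each), which differ by 0.52 ± 0.17 on the log2 scale (SE, DESeq2 adjusted p = 0.0231). This call depended on the setting. The edgeR adjusted p was 0.0637, and the DESeq2 one was 0.0919 or 0.107 without replicate 1 or 2 of GFP- and 0.0547 or 0.128 without replicate 1 or 3 of GFP+. It was called in 11 of 16 alternatives, and the log2 fold change stayed between 0.43 and 0.59 in the fits that left out 1 library.

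Nr4a2 (ENSMUSG00000026826, chromosome 2, 57106830 to 57124003, minus strand), which encodes NURR1, was measured at 195, 449, 626 and 699 normalised counts in GFP- replicates 1 to 4 and at 862, 959, 841 and 979 in GFP+ libraries. All GFP+ libraries lay above all GFP- libraries, but the GFP- libraries varied more than those of any other of the 10 genes, with a coefficient of variation of 45.5%. On the log2 scale the difference was 0.90 ± 0.34 (SE), with a 95% interval of 0.24 to 1.56, and it did not pass the test (DESeq2 adjusted p = 0.0718, edgeR adjusted p = 0.118). It passed the threshold in 3 of 16 alternatives, among them limma voom (adjusted p = 0.0371) and the fit without GFP- replicate 4 (log2 fold change 1.16, adjusted p = 0.0150). Without GFP- replicate 1, the lowest library, the log2 fold change was 0.63 (DESeq2 adjusted p = 0.0557).

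Nr4a3 (ENSMUSG00000028341, chromosome 4, 48045153 to 48086447, plus strand), which encodes NOR1, had the lower mean in GFP+ libraries. It gave 2840, 2874, 4186 and 4753 normalised counts in GFP- replicates 1 to 4 and 2333, 3099, 2652 and 2618 in GFP+ libraries. GFP- replicates 3 and 4 were the highest, and GFP+ replicate 2 lay above GFP- replicates 1 and 2, so the groups overlapped. The log2 fold change was -0.45 ± 0.21 (SE), with a 95% interval of -0.87 to -0.03, and it did not pass the test (DESeq2 adjusted p = 0.191, edgeR adjusted p = 0.234) or any of the 16 alternatives.

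The difference between NR4A genes was examined within each library, where the size factor cancels. The log2 ratio of Nr4a1 to Nr4a3 was 0.35, 0.16, 0.13 and -0.15 in GFP- and 1.31, 0.77, 1.25 and 0.94 in GFP+ libraries. The groups did not overlap, and the means of 0.12 ± 0.20 and 1.07 ± 0.26 (SD, n = 4 each) differed by 0.95. The log2 ratio of Nr4a2 to Nr4a3 was -3.01 ± 0.57 in GFP- and -1.55 ± 0.14 in GFP+ libraries, a difference of 1.46, again with no overlap. Each gave a two-sided exact permutation p of 0.0286, the smallest that 70 divisions of 8 libraries allow, and an adjusted p of 0.129 over the 9 pairs of genes within families. With 2 of 9 pairs at that smallest p, an adjusted p under 0.05 was out of reach in this design. The third NR4A pair, Nr4a1 to Nr4a2, differed by -0.51 with an exact permutation p of 0.200, and by -0.15 without GFP- replicate 1, in which Nr4a2 was lowest. The 6 EGR and IER pairs differed by at most 0.30 in either direction over all 8 libraries, with exact p-values of 0.114 to 0.971, and their groups overlapped. Without GFP+ replicate 1, Egr2 to Egr3 differed by 0.60 and Egr1 to Egr2 by -0.46.

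Counted per kb of exon, Nr4a3 made up 32.8% ± 2.46 of the NR4A reads in GFP- and 19.7% ± 2.56 in GFP+ libraries (SD, n = 4 each), with libraries at 30.5% to 36.3% and at 17.3% to 22.9%. The share of Nr4a1 was 60.9% ± 4.30 and 70.3% ± 3.56, and that of Nr4a2 was 6.37% ± 2.20 and 9.94% ± 1.28. Egr1 held 96.6% ± 0.71 of the EGR reads in GFP- and 96.1% ± 0.92 in GFP+ libraries. The share of Egr2 was 1.97% ± 0.41 and 2.47% ± 0.85, and that of Egr3 was 1.44% ± 0.42 and 1.42% ± 0.35. Because Egr1 makes up nearly all of this sum, its share hardly moves with Egr2 and Egr3. These shares are descriptions of the same counts and were not tested separately. RXRα and RXRβ, with which NR4A1 and NR4A2 can form heterodimers, were encoded by transcripts that were not called by DESeq2, edgeR or limma (0 of 2 tested, 0 at an unadjusted p under 0.05). With 4.66% of all tested genes called higher and 4.76% lower by DESeq2, 0 of 2 is near the background.

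**Figure D3:**
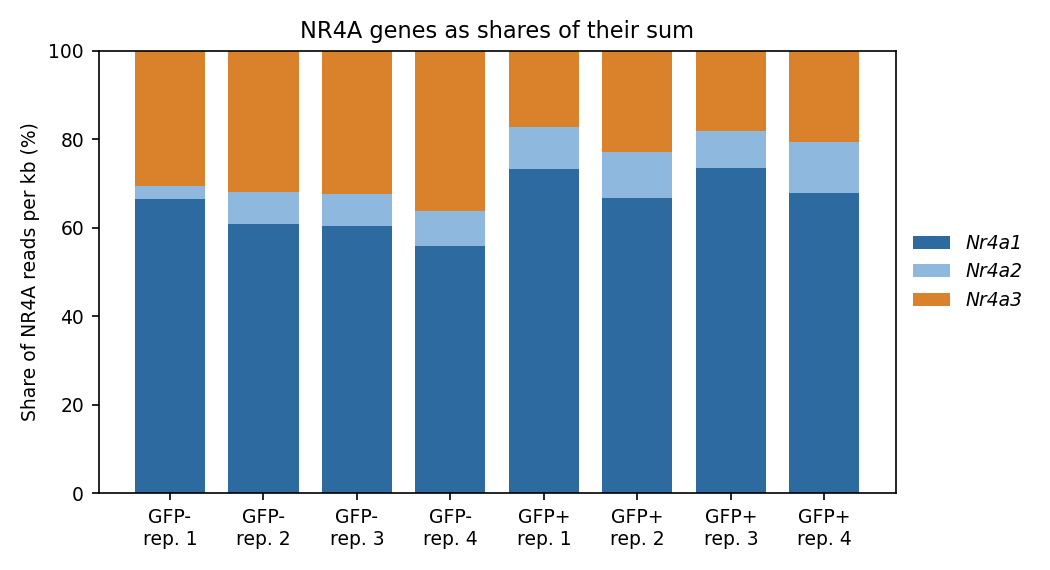
Nr4a1, Nr4a2 and Nr4a3 as percentages of their summed reads per kb of exon, 1 stacked bar per library. The Nr4a3 share was 30.5% to 36.3% in the GFP- libraries and 17.3% to 22.9% in the GFP+ libraries.

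No IER gene was called. Ier2 (ENSMUSG00000053560, chromosome 8, 84661331 to 84662852, minus strand), which encodes a small nuclear protein, gave 1425, 1271, 1264 and 1278 normalised counts in GFP- replicates 1 to 4 and 1718, 1869, 1252 and 1816 in GFP+ libraries. Of the GFP+ libraries 3 lay above all GFP- libraries and replicate 3 lay below them all. The groups differed by 0.34 ± 0.18 on the log2 scale (SE, DESeq2 adjusted p = 0.241, edgeR adjusted p = 0.271), and without GFP+ replicate 3 by 0.46 (DESeq2 adjusted p = 0.0482).

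Ier3 (ENSMUSG00000003541, chromosome 17, 35821684 to 35822923, plus strand), known as IEX-1, acts in survival signalling by ERK. It was measured at 748, 679, 956 and 598 normalised counts in GFP- replicates 1 to 4 and at 1186, 882, 1125 and 806 in GFP+ libraries, and GFP- replicate 3 stood above GFP+ replicates 2 and 4. The difference of 0.45 ± 0.22 on the log2 scale did not pass the test (SE, DESeq2 adjusted p = 0.200, edgeR adjusted p = 0.240). Ier5 (ENSMUSG00000056708, chromosome 1, 155096361 to 155099636, minus strand), a cofactor of the heat shock factor HSF1, gave 2116, 1956, 2703 and 1893 in GFP- and 2477, 2721, 2834 and 1839 in GFP+ libraries. GFP+ replicate 4 was the lowest of all 8, and the difference on the log2 scale was 0.20 ± 0.20 (SE), with a 95% interval of -0.19 to 0.58 (DESeq2 adjusted p = 0.631).

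The paralog Ier5l had a larger log2 fold change, 1.01 ± 0.46 (SE), with 67.1 ± 34.2 normalised counts over the GFP- libraries and 127 ± 40.7 in GFP+ libraries (SD, n = 4 each). Its groups did not overlap, but it did not pass the test (DESeq2 adjusted p = 0.169, edgeR adjusted p = 0.332). Genes of the heat shock response, of which HSF1 is the main activator, were called in both directions: of 11, DESeq2 called Dnajb1 and Bag3 higher, with log2 fold changes of 0.68 ± 0.18 and 0.49 ± 0.17 (SE) and adjusted p-values of 0.00440 and 0.0441, and Hspd1 lower, with -0.66 ± 0.19 (SE) and 0.0106. With edgeR, Dnajb1 alone was called. The number called higher was 1 in 6 of the 8 fits that left out 1 library (without replicates 1, 2 and 4 of GFP- and 1, 2 and 3 of GFP+), and the number called lower was 0 without replicates 2 and 4 of GFP- and 2 and 3 of GFP+. These counts stand beside 4.66% of all tested genes called higher and 4.76% lower.

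Srf (ENSMUSG00000015605, chromosome 17, 46548329 to 46556175, minus strand) encodes the factor that drives many of these promoters. It was measured at 780, 602, 483 and 476 normalised counts in GFP- replicates 1 to 4 and at 635, 439, 747 and 507 in GFP+ libraries. The ranges of the groups were nearly the same, and the means of 585 ± 142 and 582 ± 137 (SD, n = 4 each) differed by -0.02 ± 0.26 on the log2 scale (SE, DESeq2 adjusted p = 0.980). The 95% interval ran from -0.52 to 0.48. Gm26904, a long noncoding RNA gene on the opposite strand, overlaps Srf over its whole length of 7847 bases. The counting was stated to use the strand, and a remaining contribution from Gm26904 was not measured.

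Cofactors of SRF and a list of its cytoskeletal targets were counted next, which leaves out the immediate early targets of SRF. With 4.66% of all tested genes called higher and 4.76% lower, a count of 0 in lists of this size is near the background. Of 5 tested cofactors, 0 were called by DESeq2, edgeR or limma and 1 had an unadjusted p under 0.05, namely Elk4, a ternary complex factor, at 0.43 ± 0.16 on the log2 scale (SE, DESeq2 adjusted p = 0.0806). Without GFP+ replicate 1, DESeq2 called 1 cofactor higher, which was again Elk4. Of 14 cytoskeletal genes controlled by SRF and myocardin-related factors, such as Actb, Vcl and Tagln, 0 were called by DESeq2, edgeR or limma, 1 had an unadjusted p under 0.05, and the median log2 fold change was -0.06. That gene was Cnn2, at -0.92 ± 0.41 on the log2 scale (SE, DESeq2 adjusted p = 0.153). Of 13 genes of the ERK and CREB route, 0 were called by the 3 tools and 1 had an unadjusted p under 0.05. This was Rps6ka2, which encodes a kinase activated by ERK, at 279 ± 135 in GFP- and 122 ± 43.7 in GFP+ libraries (SD, n = 4 each), or -1.18 ± 0.43 on the log2 scale (SE, DESeq2 adjusted p = 0.0603). Without GFP- replicate 4, DESeq2 called 1 gene lower in each of these 2 lists, Cnn2 and Rps6ka2. Without GFP+ replicate 1, 1 cytoskeletal gene was called lower, and it was Tpm2. Elk4, Cnn2, Tpm2 and Rps6ka2 were named here after their values were seen.

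**Figure D4:**
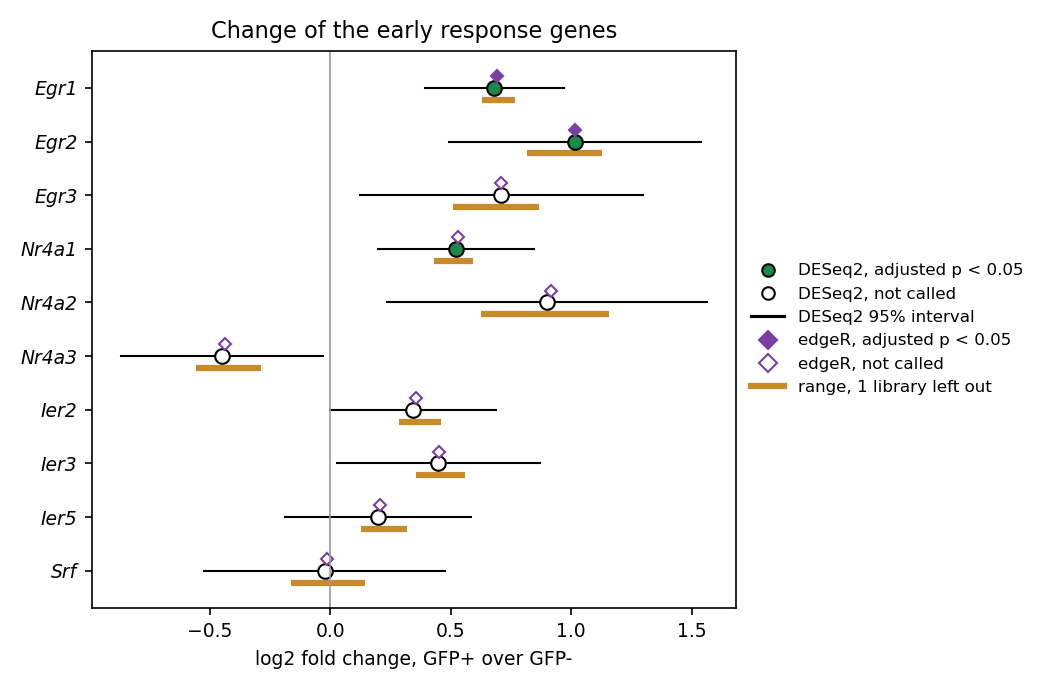
Log2 fold change of each gene in GFP+ over GFP- libraries, with the DESeq2 estimate (circle, filled where adjusted p was under 0.05) and its 95% interval, the edgeR estimate (diamond, filled likewise) and the range of DESeq2 estimates with 1 library left out (bar). Egr1 and Egr2 were called by both tools and Nr4a1 by DESeq2 alone, and the leave-one-out range of Srf spans 0.

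Other immediate early genes, among them the AP-1 subunits and the ERK phosphatases, were counted from a list of 48. Of 47 tested, 24 were called higher and 2 lower by DESeq2, 16 and 2 by edgeR, and 25 and 2 by limma voom. Over all tested genes DESeq2 called 4.66% higher and 4.76% lower, edgeR 2.83% and 2.28%, and limma voom 4.5% each way. The median log2 fold change of the list was 0.57. Csrnp1 was listed at 0 in every library. The lowest adjusted p-values were those of Arc, at 1.74 ± 0.25 on the log2 scale (SE, DESeq2 adjusted p = 1.44e-09), and of Fos, at 0.70 ± 0.11 (3.75e-08). Jun, the partner of Fos in AP-1, followed with 0.65 ± 0.13 (SE) and 1.42e-05, and Ctgf, a matricellular growth factor gene, with 1.76 ± 0.35 and 2.11e-05. The change of Egr1 was of the size of those of Fos and Jun, while Egr2 lay between these and Arc. The lower genes were Dusp6 (-1.69 ± 0.37, SE, DESeq2 adjusted p = 0.000271) and Dusp4 (-2.85 ± 0.80, adjusted p = 0.00670), phosphatases that switch off ERK. Without GFP+ replicate 1 and without GFP+ replicate 3 the number called higher was 15 and 13. Of the other phosphatase genes in the list, Dusp1 was called higher (0.62 ± 0.20, SE, DESeq2 adjusted p = 0.0289), and Dusp2 and Dusp5 were not called. Melanocyte markers fell in the same direction as Dusp4 and Dusp6, with a median log2 fold change of -3.01, and whether melanocyte RNA had a part in these 2 genes' values was not tested.

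**Figure D5:**
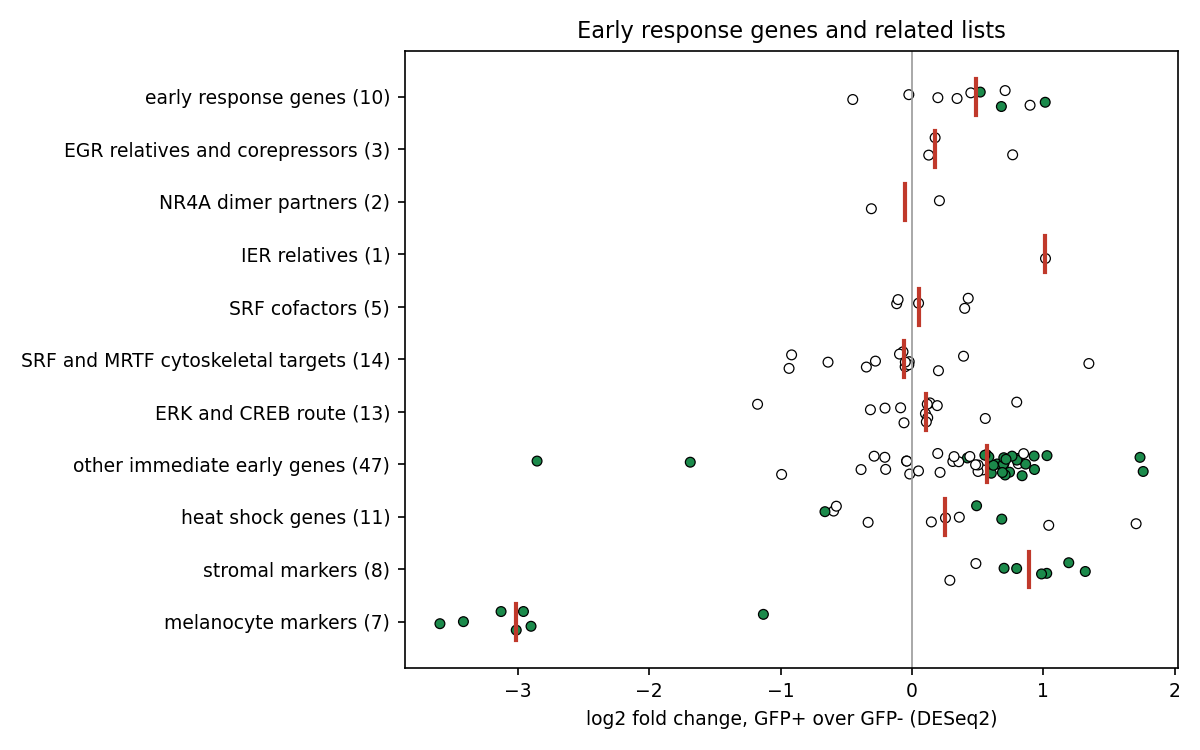
Log2 fold changes (DESeq2, GFP+ over GFP-) of the tested genes in each list, with filled circles for adjusted p under 0.05, a red line at the list's median and the number of tested genes in brackets. The early response genes have a median of 0.48 and the other immediate early genes one of 0.57, while the cytoskeletal targets of SRF have one of -0.06.

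Levels of different genes were compared as normalised counts per kb of exon. In GFP- libraries Egr1 stood first with 4121 ± 168 (SD, n = 4), at percentile 99.69 of 15268 genes. It was followed by Nr4a1 at 1118.5 ± 179 and Ier2 at 860.2 ± 50.7. Ier5, Ier3 and Nr4a3 came next at 661, 659 and 612, and their ranges overlapped. Srf at 202, Nr4a2 at 121, Egr2 at 84.4 and Egr3 at 61.6 closed the order, each overlapping the next, with Egr3 at percentile 62.57. In this order the neighbours whose libraries did not overlap were Egr1 and Nr4a1, Ier2 and Ier5, and Nr4a3 and Srf.

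In GFP+ libraries Egr1 was again first, at 6610 ± 989 (SD, n = 4) counts per kb, before Nr4a1 at 1599 ± 162 and Ier2 at 1093 ± 185. Ier3 at 884 and Ier5 at 753 overlapped, and Nr4a3 at 447 ± 52.9 lay below them. Nr4a2 at 224 ± 16.9, Srf at 201, Egr2 at 166 and Egr3 at 97.4 followed. The level order of the genes thus differed between groups at 2 places, where Ier3 and Ier5, and Nr4a2 and Srf, had changed places, and in both cases the neighbours overlapped in both groups. The neighbours that did not overlap were Egr1 and Nr4a1, Nr4a1 and Ier2, Ier5 and Nr4a3, and Nr4a3 and Nr4a2. With the longest annotated transcript as the length, the order was the same in both groups, while Nr4a1 stood at 1537 in GFP- and 2197 in GFP+ libraries.

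The libraries of a group also differed among themselves. With group means removed from log2(normalised count + 1), the mean deviation of the 10 genes was 0.23 in GFP- replicate 3, in which 8 of 10 lay above the group mean, and -0.12 to 0.08 in the other 7 libraries. The genes whose deviations were most like this mean, among 8786 genes averaging 100 normalised counts or more, were Arid5b, Rnf149, Aff1, Lpar1 and Irs2, with Pearson's r of 0.980 to 0.989 over 8 libraries. Arid5b, Lpar1 and Irs2 were called higher in GFP+ as well, with log2 fold changes of 0.70, 0.72 and 0.45 and DESeq2 adjusted p-values of 0.00934, 0.00693 and 0.0426, and Rnf149 and Aff1 were not. The 5 were picked for the highest r of all genes ranked, so their r is high by choice. The r of the 10 genes themselves with this mean ran from -0.29 for Srf, -0.26 for Ier2, 0.24 for Egr2 and 0.25 for Egr1 up to 0.77 for Nr4a1. The likeness of the 5 rested on the shallowest library: without GFP- replicate 3, 0 of the 5 were still among the first 5. That library also had the highest summed leukocyte markers of the 8, at 4834 normalised counts, and their part in its deviation was not tested. The values are given as a description, since all points share the scaling of their library.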

How the data were processed

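RNA-seq of 8 libraries of sorted stromal cells, 4 GFP+ and 4 GFP-, was analysed from the deposited table. Per the labels and the study's methods, libraries were made with the SMARTer Stranded Total RNA-Seq Kit (Pico input) and sequenced on a NextSeq. The authors trimmed reads with cutadapt 3.4, mapped them to GRCm38 with STAR 2.7.3a and counted them per Ensembl 92 gene and strand with featureCounts 2.0.1, and these raw counts were deposited for each library. The table also holds a normalised score, which is the count divided by the authors' DESeq2 size factor and rounded. It equalled the value computed here within 1 for all 232344 values and was used only for that check. The authors' fold changes and p-values in the table were not used. Per-sample columns left unused: 0.

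The 29043 genes with a count were fitted in R 4.3.3 with DESeq2 1.42.0 (the tool the study names), the group as only term and two-sided Wald tests. Cook's distance left 317 genes without a p and independent filtering 13443 without an adjusted p. Benjamini-Hochberg adjustment covered the 15283 genes left, and genes under 0.05 were called. Alternatives were edgeR 4.0.16 (quasi-likelihood, TMM), limma 3.58.1 (voom), other scalings and filters, the replicate number as a block, and each library left out. Log2 ratios within families used log2(normalised count + 1) and exact permutation tests. On simulated data (29043 genes, 200 changed) DESeq2 recovered 84 of 100 genes changed 2-fold and 100 of 100 changed 4-fold, with 10 false calls. The spread between simulated libraries was set by a formula and not estimated from these data. Only genes above a minimum mean count were changed, and no difference in cell content was simulated. These numbers are therefore not the power for the 10 genes or the lists.

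Replicates of a group differed beyond counting noise, with a chi-square per degree of freedom of 10.2 to 81.3. Total counts per library were 883144 to 31666734, reads were not collapsed by molecular identifiers, and precision is given by the spread between libraries. The labels give no batch. Coordinates and exon lengths came from GENCODE M21, in which 53620 of 53801 identifiers (99.66%) were found, and promoter windows from RefSeq. The genes and lists were chosen with earlier results of these data known. Named genes were all 10 members, up to 4 called genes per list and direction with the lowest adjusted p, and the 5 genes most like the members. Elk4, Cnn2, Tpm2, Rps6ka2, Nab1, Nab2, Egr4, Ier5l, Dusp1, Dusp2, Dusp5, Actb, Vcl, Tagln, Csrnp1 and the genes of RXRα and RXRβ fall outside this rule and were chosen with their values known.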

Additional observations from a re-analysis of the deposited data

Results flagged for a closer look

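Ier2 in the GFP- group was singled out because 1 library stood apart from the other 3. GFP- replicate 1 had 1425 normalised counts and the other 3 libraries 1264 to 1278, so the gap to the nearest library was 0.910 of the group's range, above Dixon's critical value for 4 samples. Of 20 groups examined (10 genes in each of the groups of libraries), 1 met this criterion, and chance alone marks about 1 in 20.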

How the results depend on the processing

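Of 160 refitted log2 fold changes of the 10 genes, 147 kept their direction and their side of the threshold, 5 passed it newly, 5 lost it and 3 changed sign. The number of the 10 called higher was 2 to 4 in every alternative, and 0 were called lower in any. The sign changes were those of Srf, which was 0.14, 0.09 and 0.04 without GFP- replicate 1, GFP+ replicate 2 and GFP+ replicate 4. Ratios within families kept their direction in 94 of 99 refits, in which Nr4a1 to Nr4a2 ran from -0.68 to -0.15, Egr2 to Egr3 from 0.14 to 0.60 and Egr1 to Egr2 from -0.46 to -0.089 with a library left out. The exceptions were Egr1 to Egr3 (-0.17 to 0.15 with a library left out, negative at -0.0076, -0.17 and -0.17 without GFP- replicate 2, GFP- replicate 3 and GFP+ replicate 3), Ier2 to Ier3 (-0.24 to 0.098, positive without GFP+ replicate 3) and Ier2 to Ier5 (-0.035 to 0.35, negative without GFP+ replicate 4).

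Over all genes edgeR called 405 higher and 327 lower, and leaving out 1 library gave 460 to 937 higher and 469 to 900 lower, lowest without GFP+ replicate 3 and GFP- replicate 4. Other immediate early genes called higher ranged from 13 to 26, SRF cofactors called higher from 0 to 1, and cytoskeletal SRF targets and genes of the ERK and CREB route called lower from 0 to 1. Heat shock genes called higher numbered 1 with edgeR, with size factors from genes of at least 100 mean counts and without independent filtering, and 1 to 3 with a library left out. Those called lower numbered 0 with edgeR and 2 with limma voom, those size factors, a minimum mean of 10 counts or the replicate block, and 0 to 2 with a library left out. Of the 5 genes most like the 10, 0 stayed first without GFP- replicate 3. The causes were not tested.

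The replicate numbers were not taken to pair the libraries, because the labels do not say whether same-numbered libraries came from the same tumours. Same-numbered libraries deviated together in 1 of 4 cases only (r = 0.05, -0.16, -0.12 and 0.26 over 8812 genes). Correlations over so few libraries cannot show whether the libraries were paired. With the replicate block 4 of the 10 genes were called higher, Nr4a2 among them (log2 fold change 1.03, adjusted p = 0.0128), and 755 genes were called higher and 737 lower over all genes. The depth of GFP- replicate 3 limits Egr2 and Egr3, with 33 and 35 reads there.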
